A study of Bos taurus with 12 samples.

Results

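FOXO1, FOXO3, FOXO4, SESN1, SESN3, PDK4, IRS2, TXNIP, CCNG2 and INSR are FOXO factors, the insulin receptor and genes reported as FOXO targets in other systems. Their mRNA levels were followed through adipogenic differentiation of bovine intramuscular preadipocytes. They were picked by gene name, with earlier results of these data known, and are 10 of the 23420 mRNAs of the table that were above 0 in at least 1 library. All 10 passed the filter of a mean of at least 0.1 FPKM (fragments scaled for transcript length and library size) over the 12 libraries, which 15402 mRNAs passed. The preadipocytes, precursors of fat cells, came from muscle of newborn Qinchuan cattle, and 3 libraries were made on each of 4 days. The 0 d cells had grown in complete medium with 15% FBS and had not been induced. The cells of 3 d, 6 d and 9 d had been given differentiation medium for 48 hours, which was the same medium with dexamethasone (a synthetic glucocorticoid), 0.5 mM IBMX (which blocks the breakdown of cyclic AMP) and 5 µg/mL insulin. From then on they were kept with insulin as the sole added agent, so that all 3 later days were sampled after dexamethasone and IBMX had been taken out of the medium. The sample labels and the paper differ on the doses of dexamethasone and insulin and on the selection of RNA (poly(A) selection or rRNA depletion), and the insulin dose given here is that of the labels.

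In each library, the FPKM of all mRNAs summed to between 1221194 and 1371794. FPKM hold no counts, so the depth behind a single value is not known from them. The circRNA table held 5358 to 10729 back-spliced reads per library, and the raw miRNA values summed to between 1438548 and 4673382. The labels do not say whether the 3 libraries of a day came from separate animals or cultures, and the paper calls them biological replicates, so the p-values measure the spread between these libraries alone.

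When insulin binds its receptor (INSR), insulin receptor substrates such as IRS2 recruit PI3-kinase, AKT is switched on, and AKT phosphorylates the FOXO factors, which then leave the nucleus and are held by 14-3-3 proteins. When this signal is weak, FOXO factors stay in the nucleus and turn on genes for insulin sensing, fuel choice, cell cycle arrest and stress defence, among them INSR and IRS2 themselves. Sestrins (SESN1 and SESN3 here) bind the GATOR2 complex and hold back the growth kinase mTORC1, and FOXO1 is known as a brake on early steps of fat cell differentiation.

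Markers of the labelled cell type were checked first. FABP4, which carries fatty acids inside fat cells and had the highest mean over the 12 libraries of the adipocyte markers tested, measured 3.36, 3.02 and 3.52 FPKM at 0 d, 94.7, 86.2 and 92.3 FPKM at 3 d, then 24.5, 26.4 and 28.4 at 6 d and last 7.59, 8.84 and 10.8 at 9 d. All 3 libraries of each later day lay above all those of 0 d, with the top at 3 d. LEP (leptin, a hormone of fat cells) went another way, at 2.17, 2.39 and 2.47 FPKM at 0 d, 0, 0.21 and 0 FPKM at 3 d, then 9.97, 8.60 and 5.50 at 6 d and last 25.3, 16.6 and 19.6 at 9 d. It fell at 3 d (-4.06 ± 0.41 SE, limma adjusted p = 1.49e-05), was called higher at 6 d (not with a pseudocount of 0.01) and at 9 d, and stood above FABP4 at 9 d. Of the 6 tested adipocyte markers, 3 rose and 1 fell at 3 d, and 4 rose at both 6 d and 9 d by limma, where 0 fell (1 on each of these days had a lower value at an unadjusted p under 0.05). At 3, 6 and 9 d, 8.06%, 3.39% and 3.41% of all mRNAs were called higher and 15.2%, 7.97% and 7.47% lower. The FPKM of these markers summed to 10.1 to 10.9 per library at 0 d, 97.3 to 108 at 3 d, and, on the later days, 37.7 to 39.4 (6 d) and 31.7 to 40.3 (9 d). Among defining adipocyte genes, CEBPA reached at most 0.26 FPKM. ADIPOQ (adiponectin) was low, at 0.01, 0.03 and 0.03 FPKM at 0 d, 0.40, 0.86 and 0.91 FPKM at 3 d, then 1.64, 0.22 and 0.24 at 6 d and last 0.80, 0.82 and 0.19 at 9 d, and was called higher on all 3 days (2.68, 2.22 and 2.34). Those calls were lost with a pseudocount of 1 (0.74, 0.63 and 0.62). At 6 d the call was also lost in a fit of the 6 libraries alone (2.22), without any 1 of the 0 d libraries (2.14, 2.26 and 2.26) or without the first 6 d library (1.42), and at 9 d without the first 0 d (2.26), the first 9 d (2.07) or the second 9 d library (2.05). PPARG and PLIN1 share their entries with neighbouring genes and could not be read alone.

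Genes of fibroblasts and preadipocytes were far more abundant. Their summed FPKM ran from 13231 to 14044 at 0 d, with 43535 to 45576 at 3 d, then 34229 to 35715 (6 d) and 48103 to 49252 (9 d), most of it DCN (decorin, a matrix proteoglycan). At 0 d DCN gave 9343 to 10352 FPKM and was called higher on all 3 later days. The collagen gene COL1A1 moved apart from the sum, with 2949.6 to 3146 at 0 d and 877 to 987 at 3 d, where it fell (-1.68 ± 0.059 SE, limma adjusted p = 6.49e-09), and was not called at 6 d or 9 d (0.03 and 0.17). At 3, 6 and 9 d, limma called 2, 1 and 1 of the 5 tested genes of that list higher and 3, 2 and 1 lower, beside 8.06%, 3.39% and 3.41% of all mRNAs higher and 15.2%, 7.97% and 7.47% lower. Skeletal muscle markers were also present, led by DES (desmin) at 372, 388 and 419.9 FPKM at 0 d, 125, 144 and 145 FPKM at 3 d, then 303, 310.2 and 329 at 6 d and last 217, 205 and 199 at 9 d. Their sums were 692 to 808 at 0 d, with 266 to 292 at 3 d, then 367 to 410 (6 d) and 269 to 297 (9 d), and 5, 4 and 5 of the 6 tested genes fell at 3, 6 and 9 d, with 0 higher by limma (also 0 at an unadjusted p under 0.05). MYOD1, a master regulator of muscle cells, stood at 239.8 to 303 FPKM at 0 d and 34.0 to 63.8 at 6 d and 9 d.

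The other marker lists were low, apart from that of smooth muscle. For smooth muscle and pericytes the most abundant gene was ACTA2, a smooth muscle actin that activated fibroblasts also make, at 1642, 1674 and 1776 FPKM at 0 d, 24.6, 28.9 and 26.9 FPKM at 3 d, then 1504, 1629 and 1617 at 6 d and last 596, 568 and 629 at 9 d. The 3 d libraries were the lowest for it. KCNJ8, a potassium channel gene of pericytes in the same list, went the other way, at 7.27, 9.85 and 6.30 FPKM at 0 d, 481, 527 and 447 FPKM at 3 d, then 36.8, 40.8 and 33.4 at 6 d and last 19.6, 21.8 and 24.8 at 9 d. It was called higher on all 3 days (5.96 ± 0.16 SE at 3 d, limma adjusted p = 9.71e-10) and made up most of the list at 3 d. The sums of this list were 1719 to 1848 at 0 d, with 529 to 619.5 at 3 d, then 1604 to 1715 (6 d) and 610.3 to 698 (9 d). Of its 4 tested genes, 1 rose on each later day, and 2, 1 and 2 fell at 3, 6 and 9 d. Beside this and the next lists, 8.06%, 3.39% and 3.41% of all mRNAs were called higher on those days and 15.2%, 7.97% and 7.47% lower. Endothelial markers summed to 2.47 to 3.49 FPKM in any library, with VWF as the most abundant, and limma called 0 of 2 tested (2, 0 and 1 at an unadjusted p under 0.05 at 3, 6 and 9 d). Blood and immune markers summed to 1.10 to 3.69, led by CD14, with PTPRC at 0 in all 12 libraries. Of the 3 of these tested, 2, 0 and 1 rose at 3, 6 and 9 d and 0 fell by limma (2, 1 and 1 were higher and 0 lower at an unadjusted p under 0.05). These libraries are bulk RNA, in which fewer cells of a type and less RNA per cell cannot be told apart, and the part of any cell type in the results that follow was not tested.

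In the first days after induction, preadipocytes are known to leave growth, retune insulin signalling and switch on lipid genes. Genes such as PDK4, IRS2 and the sestrins are known to be raised by FOXO factors when insulin signalling is low, as in fasting. At 3 d the set moved upward. Against 0 d, 6 of the 10 genes rose (FOXO1, FOXO4, SESN1, SESN3, PDK4 and IRS2), where 8.06% of all tested mRNAs were called higher. An mRNA was called when its absolute log2 fold change exceeded 1 and its limma adjusted p was under 0.05 over all tested mRNAs. With limma, 0 of the 10 fell, also 0 at an unadjusted p under 0.05, beside 15.2% of all mRNAs called lower. Since the genes were picked with such results known, these counts describe the set and do not test it. The median log2 fold change of the set was 2.10, against -0.06 for all tested mRNAs, and for 8 of the 10 all 3 d libraries lay above those of 0 d, as they did for 25.3% of all tested mRNAs.

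Insulin signalling is known to keep FOXO factors out of the nucleus and to lower the mRNA of their targets, PDK4 and IRS2 among them. All 3 later days were sampled with insulin as the sole added agent, and its part in the levels was not tested. The rise did not last for most of these genes. From 3 d to 6 d, 6 of the 10 fell (FOXO1, FOXO4, SESN1, SESN3, PDK4 and CCNG2), where 9.23% of all mRNAs were called lower, and from 3 d to 9 d IRS2 joined them, which made 7, where 10.3% were called lower. In these comparisons limma called 0 of the 10 higher (1 in each, TXNIP, at an unadjusted p under 0.05), beside 9.85% and 10.2% of all mRNAs. The medians of the set were -1.72 and -1.89, against -0.09 and -0.13 for all mRNAs. CCNG2 from 3 d to 9 d was no longer called with a pseudocount of 1, at -0.94.

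Later days of differentiation are when fat cells fill with lipid and take up more glucose. TXNIP is known to follow glucose uptake, and PDK4 and IRS2 to follow the balance of FOXO activity and insulin. At 6 d, 3 of the 10 were called above 0 d, beside 3.39% of all mRNAs: PDK4 and IRS2, which had been called at 3 d, and TXNIP, which had not, and by 9 d TXNIP alone was, beside 3.41%. Lower calls numbered 0 on both days with limma (3 and 4 genes had lower values at an unadjusted p under 0.05), beside 7.97% and 7.47% of all mRNAs. The medians of the set, 0.07 and -0.20, lay near those of all mRNAs, -0.15 and -0.19. Between 6 d and 9 d, 2 of the 10 fell (PDK4 and IRS2), where 1.89% of all mRNAs were called lower, and limma called 0 higher (2 at an unadjusted p under 0.05), where 2.55% were. The call of PDK4 in that last comparison was lost with a pseudocount of 1, at -0.77. Its call at 6 d against 0 d was lost with a pseudocount of 1 (0.62) and without the first 0 d (0.93), the last 0 d (0.90) or the first 6 d library (0.91), which left 2 of the 10 called. The comparisons with 0 d share the same 3 libraries of 0 d, and those with 3 d share the 3 d libraries, so their values are not independent of each other.

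The deposited FPKM were not centred alike on each day. When the libraries were rescaled by their median ratio, the median log2 fold change of all mRNAs moved up by 0.15 at 6 d and 0.19 at 9 d against 0 d, and by 0.11 from 3 d to 9 d. Of the mRNAs called against 0 d, 29.9% were higher at 6 d as deposited and 40.4% after rescaling, and at 9 d these shares were 31.3% and 46.4%. For several small differences at 6 d and 9 d the rescaled values are therefore given too.

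**Figure D1:**
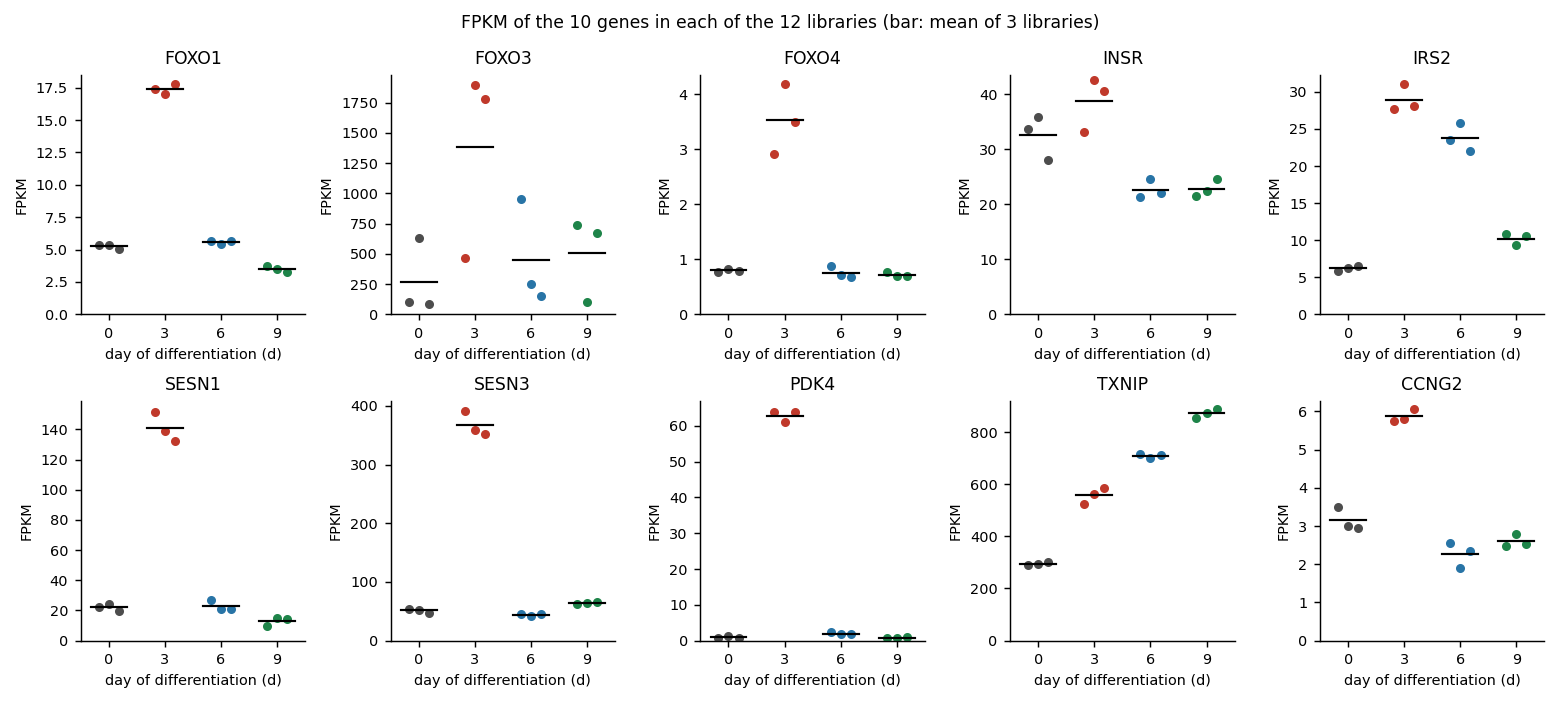
FPKM (vertical axes, linear from 0) of each of the 10 genes in the 12 libraries by day of differentiation (horizontal axes), with 1 point for each library and a bar at the mean of the 3 libraries. The 3 d libraries stand highest for 6 genes that fell afterwards (PDK4 at 61.1 to 63.9 FPKM), IRS2 stays high to 6 d, TXNIP climbs to 856 to 891 FPKM at 9 d, and FOXO3 spreads from 469 to 1893 FPKM within 3 d alone.

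**Figure D2:**
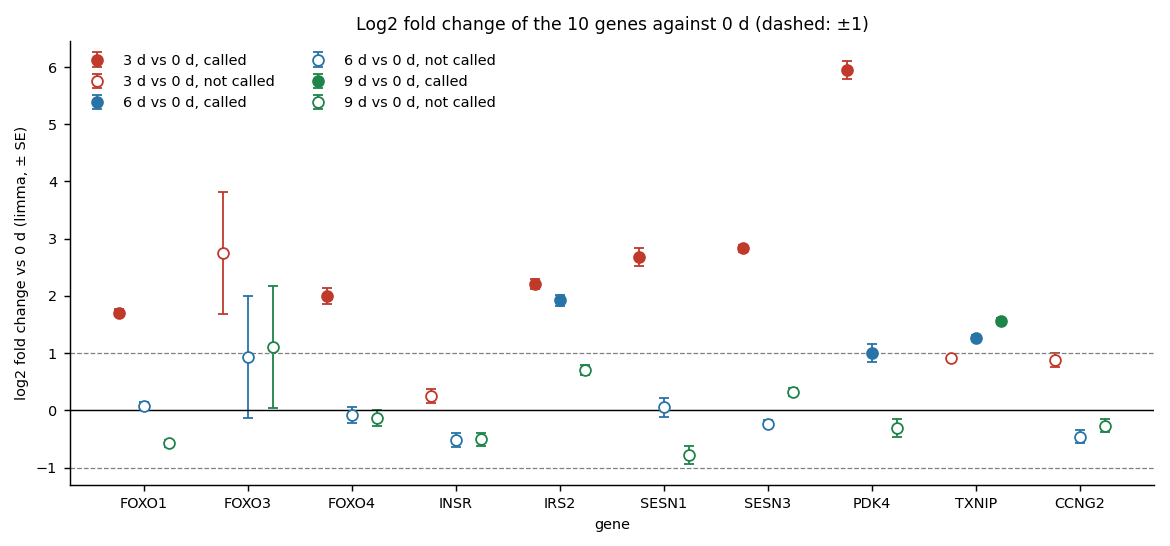
Log2 fold change (vertical axis, limma, error bars SE) of the 10 genes (horizontal axis) at 3, 6 and 9 d against 0 d, 3 libraries a day, with filled points for called changes, open points for the others and dashed lines at ±1. At 3 d 6 genes are called, from 1.71 (FOXO1) to 5.95 (PDK4), FOXO3 has the widest error bar (1.07), and the small values of FOXO4 at 6 d and 9 d (-0.07 and -0.13) turn to 0.07 and 0.05 after rescaling.

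FOXO1, the FOXO factor best known in fat and liver, measured 5.36, 5.34 and 5.07 FPKM at 0 d, 17.4, 17.04 and 17.8 FPKM at 3 d, then 5.65, 5.39 and 5.66 at 6 d and last 3.70, 3.51 and 3.30 at 9 d. Its 3 d libraries were at least 3 times all others, those of 6 d lay just above those of 0 d, and those of 9 d were the lowest. At 3 d it was 3.31-fold higher than at 0 d (log2 fold change 1.71 ± 0.065 SE, limma adjusted p = 1.24e-08), and from 3 d to 9 d it fell by 2.28 on the log2 scale. At 9 d it stood below 0 d in all 3 libraries, but by less than 2-fold (-0.57, -0.37 after rescaling). In order of mean level, 3 d was followed by 6 d and 0 d, and then 9 d. As deposited, 6 d and 0 d did not differ beyond their spread (0.08, limma adjusted p = 0.391), whereas after rescaling they did (0.24, limma adjusted p = 0.0199, with 0.0199 to 0.617 over the 19 alternatives).

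FOXO4, a further factor of the family, was scarcer, at 0.77, 0.83 and 0.79 FPKM at 0 d, 2.91, 4.18 and 3.49 FPKM at 3 d, then 0.88, 0.71 and 0.68 at 6 d and last 0.76, 0.70 and 0.70 at 9 d. Every 3 d library exceeded every other library more than 3-fold, and the libraries of 0 d and 6 d overlapped, as did those of 6 d and 9 d. It was 4.43-fold higher at 3 d than at 0 d (log2 fold change 2.002 ± 0.14 SE, limma adjusted p = 8.9e-07) and fell by 2.07 on the log2 scale to 6 d. At this low level the pseudocount sets the size: with a pseudocount of 1 the log2 fold changes were 1.32 and -1.36, both still called. The other 3 days did not differ beyond their spread.

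FOXO3, which in muscle is known for driving protein breakdown, was the most abundant of the 3 in every library and the least even, at 97.3, 631 and 83.4 FPKM at 0 d, 469, 1893 and 1783 FPKM at 3 d, then 949.9, 249 and 152 at 6 d and last 734, 105 and 669.8 at 9 d. Within 1 day the highest library held up to 7.56 times the lowest. The second 0 d library lay above the first 3 d library, and the first 6 d library and 2 of the 9 d libraries did too, so that every pair of days overlapped. The mean at 3 d was 5.11 times that at 0 d, but the difference was not called (log2 fold change 2.76 ± 1.07 SE, limma adjusted p = 0.0527). The call turned on single libraries: FOXO3 was called higher without the second 0 d library (3.69), without the first 3 d library (3.41), without the first 6 d or the second 9 d library (2.76 in both), and after rescaling (2.84), and its limma adjusted p ran from 0.0161 to 0.159 over the 19 alternatives. No 2 neighbouring days in the order of its means differed beyond their spread.

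The spread of FOXO3 stood out among abundant mRNAs. Its residual SD on the log2 scale was 1.44, and of the 1537 tested mRNAs with a mean of at least 100 FPKM, 10 had a larger one, whereas those of the other 9 genes ran from 0.048 (TXNIP) to 0.212 (SESN1). A ratio above 5 between libraries of 1 day occurred in 46 of these 1537 mRNAs. FOXO3 made up 93.2% to 99.4% of the summed FPKM of FOXO1, FOXO3, FOXO4 and FOXO6 in each library, so the sum of the family follows FOXO3 and carries its spread. Whether the FOXO3 value stands for the same transcripts in every library was not tested, and both its FPKM and its share of the family rest on that. SESN1 and FOXO3 are neighbours on chromosome 9 with ARMC2 as the 1 gene between them. ARMC2 measured 2.55, 2.64 and 1.91 FPKM at 0 d, 4.28, 2.89 and 3.5 FPKM at 3 d, then 3.52, 2.81 and 2.47 at 6 d and last 2.22, 2.01 and 1.69 at 9 d and was not called on any later day (log2 fold change 0.56 ± 0.19 SE at 3 d, limma adjusted p = 0.0296).

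The mRNAs of proteins that modify or hold FOXO factors were not called higher on any day. Of 15 tested genes of this list, which includes 14-3-3 proteins, deacetylases, acetyltransferases and ubiquitin ligases, limma called 0 higher and 2 lower at 3 d (0 and 9 at an unadjusted p under 0.05), 2 of 15 beside 15.2% of all mRNAs called lower. At 6 d and 9 d it called 0 of 15 in either direction (at an unadjusted p under 0.05, 2 were higher and 8 lower on 6 d, and on 9 d 12 were lower and 0 higher). At 6 d 1 was called lower without the last 0 d library or without the first or last 6 d library. The medians were -0.34, -0.19 and -0.35 at 3, 6 and 9 d, against -0.06, -0.15 and -0.19 for all mRNAs. Both genes that fell at 3 d encode 14-3-3 proteins, which bind phosphorylated FOXO factors. They were not the abundant ones of that family. YWHAG, its most abundant gene in the list, had means of 1374 FPKM at 0 d and 1397 at 3 d. YWHAB, YWHAE and YWHAQ had lower means at 3 d (213 and 115, 139 and 106, 76.5 and 46.5 FPKM at 0 d and 3 d) and were not called. YWHAH measured 21.9, 19.4 and 21.9 FPKM at 0 d, 4.55, 5.87 and 1.58 FPKM at 3 d, then 3.42, 12.5 and 14.02 at 6 d and last 15.1, 16.1 and 15.4 at 9 d, and its 3 d libraries lay below those of 0 d (-2.55 ± 0.55 SE, limma adjusted p = 0.00288). YWHAZ measured 25.83, 10.25 and 9.93 FPKM at 0 d and 4.43, 4.40 and 4.32 FPKM at 3 d. Its first 0 d library stood far above the other 2, and it changed by -1.63 ± 0.30 SE (limma adjusted p = 0.00103).

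INSR, the insulin receptor, measured 33.8, 35.8 and 28.1 FPKM at 0 d, 33.2, 42.6 and 40.5 FPKM at 3 d, then 21.3, 24.6 and 22.03 at 6 d and last 21.5, 22.4 and 24.6 at 9 d. The 3 d and 0 d libraries overlapped, and all those of 6 d and 9 d lay below both. None of its changes against 0 d was called: the log2 fold change was 0.25 ± 0.12 SE at 3 d (limma adjusted p = 0.105) and -0.52 and -0.51 at 6 d and 9 d. After rescaling the last values were -0.35 and -0.30, and that of 9 d then had a limma adjusted p of 0.0715 (0.00407 to 0.0715 over the 19 alternatives). As deposited, neither 3 d and 0 d nor 9 d and 6 d differed beyond their spread. After rescaling the value at 3 d was 0.34 (limma adjusted p = 0.0306, with 0.0278 to 0.333 over the 19 alternatives), under the limit of the call.

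IRS2, the adaptor that passes the signal of the insulin receptor to PI3-kinase, measured 5.80, 6.27 and 6.54 FPKM at 0 d, 27.6, 31.1 and 28.1 FPKM at 3 d, then 23.5, 25.9 and 22.1 at 6 d and last 10.8, 9.35 and 10.5 at 9 d. Here 3 d was highest, 6 d stood close below it, 9 d far lower and 0 d lowest, with no overlap between any 2 days. The step from 3 d to 6 d was small (-0.28, limma adjusted p = 0.0234) and did not exceed the spread after rescaling (-0.20, limma adjusted p = 0.0774, with 0.0161 to 0.086 over the 19 alternatives). IRS2 was 4.66-fold higher at 3 d (2.20 ± 0.088 SE, limma adjusted p = 1.71e-08) and still 3.84-fold higher at 6 d (1.92 ± 0.088 SE, limma adjusted p = 1.56e-07). It then fell by 1.21 on the log2 scale from 6 d to 9 d. Its value at 9 d, 0.71 against 0 d (0.91 after rescaling), was not called. Its relative IRS1, the other main adaptor, went the other way, at 1.91, 2.23 and 1.98 FPKM at 0 d, 0.75, 0.75 and 0.79 FPKM at 3 d, then 0.66, 0.66 and 0.69 at 6 d and last 0.90, 0.83 and 0.82 at 9 d. All later IRS1 libraries lay below all 0 d libraries (-1.31, -1.47 and -1.17 at 3, 6 and 9 d, each called). With a pseudocount of 1 all 3 calls were lost (-0.78, -0.86 and -0.72), and that of 9 d also after rescaling (-0.98). The share of IRS2 in the summed FPKM of IRS1, IRS2 and IRS4 went from 75.3% (mean of 3 libraries) at 0 d to 97.4% at 3 d.

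In the wider insulin and AKT pathway calls were few and mostly lower, as among all mRNAs. Of its 28 tested genes, 2 rose and 4 fell at 3 d, beside 8.06% and 15.2% of all mRNAs. At 6 d 1 rose and 3 fell (3.39% and 7.97% of all mRNAs), and at 9 d 1 rose and 5 fell (3.41% and 7.47%). The medians were -0.46, -0.31 and -0.33, against -0.06, -0.15 and -0.19 for all mRNAs. With a pseudocount of 1 the called genes numbered 3 rather than 6 at 3 d, 1 rather than 4 at 6 d and 3 rather than 6 at 9 d. The falls at 6 d numbered 4 rather than 3 without the first or second 0 d library or the first or last 6 d library. PIK3R1, a regulatory subunit of PI3-kinase, had the largest rise of the list, at 25.4, 24.9 and 23.7 FPKM at 0 d, 137, 108 and 107 FPKM at 3 d, then 26.96, 26.9 and 25.8 at 6 d and last 26.9, 20.2 and 24.03 at 9 d. It was high at 3 d alone (2.23 ± 0.12 SE, limma adjusted p = 1.24e-07). TRIB3, a pseudokinase known to bind AKT and to respond to stress, had the largest fall, at 57.9, 60.4 and 64.1 FPKM at 0 d, 1.36, 1.60 and 1.87 FPKM at 3 d, then 30.7, 30.00 and 30.4 at 6 d and last 15.2, 13.5 and 21.1 at 9 d. Its 3 d libraries were 37.8-fold below 0 d in the mean (-5.16 ± 0.16 SE, limma adjusted p = 2.37e-09). TRIB3 was partly back at 6 d, where its value of -0.997 against 0 d was not called. It was called lower there without the first 0 d (-1.03), the second 0 d (-1.001) or the first 6 d library (-1.01).

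SESN3, the most abundant sestrin, measured 54.4, 52.9 and 47.4 FPKM at 0 d, 391, 359 and 352 FPKM at 3 d, then 44.8, 41.8 and 45.1 at 6 d and last 63.01, 64.3 and 65.3 at 9 d. The 3 d libraries stood more than 5 times above every other, while 9 d lay a little above 0 d and 6 d a little below it, without overlap. It was 7.13-fold higher at 3 d (2.83 ± 0.066 SE, limma adjusted p = 4.43e-10) and fell by 3.06 on the log2 scale to 6 d. The later values against 0 d, -0.23 at 6 d and 0.32 at 9 d, were not called and became -0.06 and 0.52 after rescaling.

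SESN1, which is also known as a p53 target, measured 22.3, 24.4 and 19.4 FPKM at 0 d, 152, 139 and 133 FPKM at 3 d, then 26.9, 20.8 and 21.2 at 6 d and last 9.87, 14.7 and 14.2 at 9 d. It showed the same peak at 3 d, but its 9 d libraries were the lowest, and those of 6 d and 0 d overlapped. It was 6.42-fold higher at 3 d (2.68 ± 0.16 SE, limma adjusted p = 3.59e-07) and 10.9-fold lower at 9 d than at 3 d (-3.46 ± 0.16 SE, limma adjusted p = 6.8e-08). Against 0 d its value at 9 d was -0.78 (-0.58 after rescaling), under the 2-fold limit.

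The other sestrin, SESN2, known as a target of the stress factor ATF4, went the opposite way, at 7.83, 9.25 and 6.47 FPKM at 0 d, 1.53, 1.67 and 1.74 FPKM at 3 d, then 6.26, 6.56 and 5.86 at 6 d and last 2.40, 1.67 and 3.19 at 9 d. Its 3 d libraries were the lowest together with part of 9 d, and those of 6 d lay near 0 d. It fell at 3 d (-2.17 ± 0.20 SE, limma adjusted p = 9.24e-06) and was lower at 9 d (-1.69 ± 0.20 SE, limma adjusted p = 0.000142), but not called at 6 d. SESN3 made up 63.4%, 72.0%, 60.1% and 80.8% of the summed sestrin FPKM at 0, 3, 6 and 9 d (means of 3 libraries), and SESN2 9.60%, 0.324%, 8.55% and 3.04%. The sum itself was 81.4 ± 7.15 FPKM (SD, n = 3) at 0 d and 510.4 ± 30.4 at 3 d.

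Genes of the machinery through which sestrins act were followed too. Of 21 tested genes for GATOR subunits, Rag GTPases, mTORC1 and AMPK, 5 fell at 3 d and 3 fell on each of 6 d and 9 d, and limma called 0 higher on any day (3, 2 and 1 at an unadjusted p under 0.05). Of all mRNAs, 15.2%, 7.97% and 7.47% fell and 8.06%, 3.39% and 3.41% rose on those days. Over the 19 alternatives the falls numbered 4 to 6, 1 to 3 and 0 to 3 at 3, 6 and 9 d. The medians were -0.12, -0.25 and -0.35, against -0.06, -0.15 and -0.19 for all mRNAs. PRKAB2, a regulatory subunit of the energy sensor AMPK, had the largest fall of the list at 3 d, at 24.5, 17.2 and 22.8 FPKM at 0 d, 7.55, 9.90 and 7.52 FPKM at 3 d, then 17.2, 19.96 and 20.4 at 6 d and last 9.20, 13.4 and 9.52 at 9 d. Every 3 d library lay below every 0 d library (-1.35 ± 0.18 SE, limma adjusted p = 0.000125).

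PDK4, the kinase that shuts pyruvate dehydrogenase and so spares glucose, measured 0.82, 1.22 and 0.78 FPKM at 0 d, 63.9, 61.1 and 63.8 FPKM at 3 d, then 2.25, 1.76 and 1.89 at 6 d and last 0.66, 0.69 and 0.85 at 9 d. The 3 d libraries stood far above all others and close to each other, 6 d lay slightly above 0 d, and 9 d overlapped 0 d. The mean at 3 d was 66.9-fold that at 0 d (5.95 ± 0.16 SE, limma adjusted p = 1.16e-09), which was the largest change of the 10 genes in the comparisons with 0 d. Over the 19 alternatives this log2 fold change of PDK4 ran from 5.05 to 6.13. From 3 d it fell to 6 d and 9 d with log2 fold changes of -4.94 and -6.25. The remainder at 6 d against 0 d sat at the limit of the call (1.01 ± 0.16 SE, limma adjusted p = 0.000815). It was not called there with a pseudocount of 1 (0.62), nor without the first 0 d library (0.93), the last 0 d library (0.90) or the first 6 d library (0.91).

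The other kinases of the family did not share this peak. PDK1 measured 4.01, 3.47 and 3.64 FPKM at 0 d, 5.91, 5.95 and 6.29 FPKM at 3 d, then 7.52, 7.39 and 7.57 at 6 d and last 7.43, 8.09 and 7.98 at 9 d, which climbed to 6 d and stayed, and was called at 9 d (1.06 ± 0.073 SE, limma adjusted p = 2.8e-06). With a pseudocount of 1 its value at 9 d was 0.91, not called. Its value at 6 d (0.999), not called, passed the limit with a pseudocount of 0.01 (1.02), after rescaling (1.16), and without the first 0 d (1.06) or the second 6 d library (1.01). Neither PDK2 nor PDK3 was called on any day. PDK4 held 5.61% of the summed FPKM of PDK1 to PDK4 at 0 d, 77.4% at 3 d, and 9.31% and 3.92% on the later days (means of 3 libraries). Of the 10 genes for the pyruvate dehydrogenase complex, its phosphatases and the mitochondrial pyruvate carrier, all tested, 1 fell at 3 d and at 6 d, and at 9 d limma called 0 in either direction (1 higher and 4 lower at an unadjusted p under 0.05). Called higher by limma were 0 on each day, and 1 was higher at an unadjusted p under 0.05 on each of them. The medians were -0.11, -0.14 and -0.25. Of all mRNAs 15.2% fell at 3 d and 7.97% at 6 d, near the share of this list, and the medians of all mRNAs were -0.06, -0.15 and -0.19. The gene that fell was PDP1, a phosphatase that works against the PDK enzymes, at 19.3, 6.26 and 17.04 FPKM at 0 d, 4.22, 4.70 and 4.54 FPKM at 3 d, then 6.05, 5.70 and 5.06 at 6 d and last 8.93, 9.21 and 8.57 at 9 d. Its second 0 d library was close to the later days, and its call at 6 d was lost without the first (-0.88) or last (-0.96) 0 d library, the second (-1.19) or last (-1.10) 6 d library, and in a fit of the 6 libraries alone. At 9 d 1 gene of the list was called lower without the second 0 d library. All 3 d libraries lay below all 0 d libraries (-1.48 ± 0.34 SE, limma adjusted p = 0.00381).

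TXNIP, an alpha-arrestin that binds thioredoxin and curbs glucose uptake, measured 291, 293 and 303 FPKM at 0 d, 523, 564 and 586 FPKM at 3 d, then 717, 702 and 712 at 6 d and last 856, 874 and 891 at 9 d. Each day lay above the one before it without overlap, so that it was the sole gene of the set with its top at 9 d. Its value at 3 d was under the limit of the call (0.91 ± 0.047 SE, limma adjusted p = 1.12e-07), although after rescaling it reached 1.00 and was called. It was called at 6 d, 2.40-fold above 0 d (1.26 ± 0.047 SE, limma adjusted p = 4.36e-08), and at 9 d, 2.95-fold (1.56 ± 0.047 SE, limma adjusted p = 1.6e-08).

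Of the related alpha-arrestins, all later libraries of ARRDC3 and ARRDC4 lay above those of 0 d, and those of ARRDC1 below. ARRDC3 was called higher at 3 d and 9 d but not at 6 d, and ARRDC4 at 6 d and 9 d but not at 3 d. ARRDC4, a close paralogue, measured 24.8, 26.1 and 25.1 FPKM at 0 d, 38.5, 31.6 and 41.00 FPKM at 3 d, then 53.7, 61.8 and 54.8 at 6 d and last 131, 125 and 141 at 9 d, with the highest libraries at 9 d (2.38 ± 0.098 SE, limma adjusted p = 1.17e-07). ARRDC3 measured 60.1, 66.3 and 58.8 FPKM at 0 d, 751, 582 and 538 FPKM at 3 d, then 86.04, 99.96 and 83.9 at 6 d and last 195, 196 and 249.6 at 9 d, high at 3 d, low at 6 d and in between at 9 d (3.32 ± 0.14 SE at 3 d, limma adjusted p = 2.32e-08). ARRDC1 measured 8.27, 7.60 and 8.56 FPKM at 0 d, 3.26, 4.18 and 3.78 FPKM at 3 d, then 6.26, 6.06 and 6.09 at 6 d and last 5.53, 5.78 and 6.15 at 9 d, below 0 d in all later libraries (-1.11 ± 0.095 SE at 3 d, limma adjusted p = 4.69e-06), and was called at 3 d alone, though not with a pseudocount of 1 (-0.95). ARRDC2, under 2 FPKM in every library, was not called, although its 6 d and 9 d libraries (1.10 to 1.75 FPKM) lay above those of 0 d (0.67 to 0.86). Over the 11 tested relatives of the 10 genes (other FOXO, sestrin, PDK, IRS, arrestin and cyclin G genes), 1 rose and 4 fell at 3 d, 1 rose and 2 fell at 6 d, and 3 rose and 2 fell at 9 d. Of all mRNAs, 8.06%, 3.39% and 3.41% rose and 15.2%, 7.97% and 7.47% fell. The medians of the relatives were -0.22, 0.01 and -0.22, against -0.06, -0.15 and -0.19. ARRDC3 was the relative with the largest rise and SESN2 that with the largest fall at 3 d, and with a pseudocount of 1 the 5 calls at 3 d became 2. Over the 19 alternatives 1 to 4 fell at 3 d, 1 to 2 rose and 0 to 2 fell at 6 d, and 2 to 3 rose and 1 to 2 fell at 9 d. At 6 d the falls numbered 0 with a pseudocount of 1, and 1 without any 1 of the 0 d libraries or among mRNAs with a mean of at least 1 FPKM.

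TXNIP transcription is known to be driven by MondoA (MLXIP) and ChREBP (MLXIPL), which sense glucose metabolites. Of the 10 tested genes of the list of thioredoxin and Mondo factors, 1 rose and 2 fell at 3 d, and 1 rose at 6 d, where limma called 0 lower (3 at an unadjusted p under 0.05). At 9 d limma called 0 of 10 (4 higher and 4 lower at an unadjusted p under 0.05), and the medians were -0.31, -0.01 and 0.03, with -0.06, -0.15 and -0.19 over all mRNAs. These counts lay near the shares of all mRNAs at 3 d, 8.06% higher and 15.2% lower, and at 6 d 3.39% of all mRNAs rose and 7.97% fell. At 9 d 1 was called higher without the second 0 d or the first 9 d library. The gene that rose was MLXIP, at 3.87, 13.7 and 4.88 FPKM at 0 d, 27.96, 38.6 and 30.1 FPKM at 3 d, then 29.5, 30.2 and 27.9 at 6 d and last 5.67, 20.6 and 20.04 at 9 d. Its 3 d and 6 d libraries lay above those of 0 d, of which the second was the highest (2.30 ± 0.54 SE at 3 d, limma adjusted p = 0.00458). MLXIPL was low, at 0.65, 0.66 and 0.63 FPKM at 0 d, 0.24, 0.19 and 0.17 FPKM at 3 d, then 0.55, 0.49 and 0.54 at 6 d and last 0.28, 0.28 and 0.46 at 9 d, and fell at 3 d (-1.32 ± 0.16 SE, limma adjusted p = 6.33e-05), although with a pseudocount of 1 it was not called (-0.46).

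**Figure D3:**
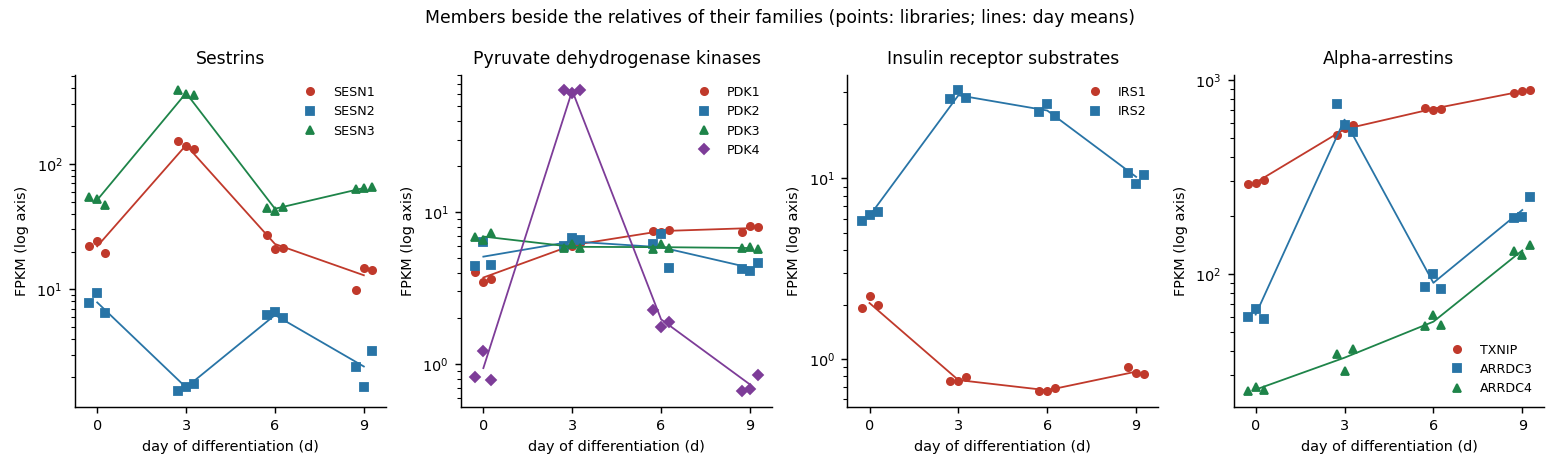
FPKM on a log axis (vertical) by day of differentiation (horizontal) for SESN1, SESN3, PDK4, IRS2 and TXNIP beside relatives of their families, with 1 point for each of the 12 libraries and lines through the day means. At 3 d SESN1 and SESN3 peak while SESN2 is at 1.53 to 1.74 FPKM, PDK4 rises past the other 3 kinases, IRS1 is at 0.75 to 0.79 FPKM while IRS2 is at 27.6 to 31.1, and ARRDC4 climbs with TXNIP to 9 d.

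CCNG2, cyclin G2, an unusual cyclin linked to cell cycle arrest, measured 3.51, 2.99 and 2.94 FPKM at 0 d, 5.75, 5.81 and 6.07 FPKM at 3 d, then 2.56, 1.90 and 2.35 at 6 d and last 2.47, 2.79 and 2.53 at 9 d. Its 3 d libraries were above all others, 0 d came next, and 6 d and 9 d overlapped. At 3 d it was 1.87-fold above 0 d and below the limit of the call (0.88 ± 0.12 SE, limma adjusted p = 0.000109). From 3 d to 6 d it fell (-1.34, limma adjusted p = 6.83e-06, with all 3 libraries of 6 d below those of 3 d). Against 0 d its value at 6 d was -0.46 (-0.30 after rescaling), not called. Its mean at 9 d did not differ from that at 0 d (-0.27, or -0.07 after rescaling) or 6 d beyond the spread.

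Of a list of 10 proliferation genes, all tested, limma called 0 at 3, 6 or 9 d (at an unadjusted p under 0.05, on 3 d 6 were higher and 0 lower, on 6 d 1 was higher and 2 lower, and on 9 d there were 4 of each), with medians of 0.46, -0.04 and -0.20. Without the second 3 d library, 1 of the 10 was called at 3 d. The shares of all mRNAs called were 8.06%, 3.39% and 3.41% higher and 15.2%, 7.97% and 7.47% lower, with medians of -0.06, -0.15 and -0.19. Among 10 tested p53 targets, which share several names with the FOXO targets, 2 fell at 3 d, a share near the 15.2% of all mRNAs. On that day limma called 0 higher, while 1 was higher and 7 lower at an unadjusted p under 0.05. At 6 d and 9 d limma called 0 of these 10 (at an unadjusted p under 0.05, on 6 d 1 was higher and 2 lower, and on 9 d 2 were higher and 1 lower), and the medians were -0.85, -0.16 and -0.16. PHLDA3, a p53 target that binds the lipids AKT needs, had the larger fall, at 78.98, 76.4 and 85.1 FPKM at 0 d, 20.3, 25.1 and 21.6 FPKM at 3 d, then 42.3, 48.8 and 45.1 at 6 d and last 66.7, 64.03 and 69.2 at 9 d. All its 3 d libraries lay below all those of 0 d (-1.85 ± 0.088 SE, limma adjusted p = 6.13e-08). With a pseudocount of 1, or among mRNAs with a mean of at least 1 FPKM, 1 p53 target rather than 2 was called at 3 d. At 9 d 1 was called higher after rescaling and without the first 0 d or the last 9 d library.

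Further known FOXO targets split in both directions at 3 d. Their list mixes genes that FOXO factors raise with CCND1, which they repress, so its counts and medians follow no single expected direction. Of 30 tested, 6 rose (BCL6, SOD2, SELENOP, CITED2, PCK1 and PNPLA2) and 7 fell, among them CCND1, KLF2, SESN2 and GADD45A, with a median of -0.05 against -0.06 for all mRNAs. At 6 d limma called 0 higher (7 at an unadjusted p under 0.05) and 4 lower, and at 9 d 3 rose and 4 fell, with medians of -0.22 and -0.25. Of all mRNAs, 8.06%, 3.39% and 3.41% were called higher and 15.2%, 7.97% and 7.47% lower at 3, 6 and 9 d. Over the 19 alternatives 4 to 9 rose and 5 to 7 fell at 3 d, 0 to 1 rose and 2 to 4 fell at 6 d, and 2 to 3 rose and 1 to 4 fell at 9 d. The 7 falls at 3 d became 6 under many of them, such as a replicate term, a fit of the 6 libraries alone or a pseudocount of 0.01. With a pseudocount of 1, or among mRNAs with a mean of at least 1 FPKM, they became 5. PCK1 was not called with a pseudocount of 1 (0.23) or without the last 0 d library (0.95), and PNPLA2 not with a pseudocount of 1 (0.80) or without the second 3 d library (0.94). BCL6, a transcriptional repressor, had the largest rise, at 118, 67.9 and 90.4 FPKM at 0 d, 1488, 1535 and 1386 FPKM at 3 d, then 92.1, 169 and 174 at 6 d and last 115, 249 and 244 at 9 d. Its 3 d libraries stood more than 5 times above any other (4.03 ± 0.34 SE, limma adjusted p = 3.99e-06). Its call at 9 d (1.09) was lost in a fit of the 6 libraries alone (1.09) and without the second (0.89) or last (1.10) 0 d library or the second (0.90) or last (0.92) 9 d library. That of KLF2 at 9 d (-1.11) was lost with a pseudocount of 1 (-0.99) and after rescaling (-0.91). PCK1 at 6 d (0.96) was called after rescaling (1.02) and without the first (1.08) or second (1.08) 0 d or the second 6 d library (just above 1). CCND1, cyclin D1, which FOXO factors repress and which drives entry into the cell cycle, had the largest fall, at 85.7, 79.2 and 87.5 FPKM at 0 d, 3.94, 4.42 and 3.73 FPKM at 3 d, then 47.8, 50.1 and 51.2 at 6 d and last 197, 184 and 183 at 9 d. It was 20.9-fold lower at 3 d than at 0 d (-4.35 ± 0.073 SE, limma adjusted p = 7.72e-11) and higher than at 0 d by 9 d (1.16 ± 0.073 SE, limma adjusted p = 1.57e-06).

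Dexamethasone was part of the induction, and PDK4 and the FOXO factors are known to respond to glucocorticoids, so a list of glucocorticoid response genes was followed too. Of its 11 tested genes, 8 rose and 1 fell at 3 d, 7 rose at 6 d, where limma called 0 lower (2 at an unadjusted p under 0.05), and 4 rose and 2 fell at 9 d. Among all mRNAs, 8.06%, 3.39% and 3.41% were called higher on these days and 15.2%, 7.97% and 7.47% lower. The medians, 1.16, 1.40 and 0.56, compare with -0.06, -0.15 and -0.19 for all mRNAs. ZBTB16, a zinc finger factor strongly induced by glucocorticoids in many cells, had the largest rise, at 0.53, 0.25 and 0.25 FPKM at 0 d, 355, 330 and 162 FPKM at 3 d, then 84.4, 92.97 and 63.3 at 6 d and last 15.6, 9.89 and 11.5 at 9 d. It was highest at 3 d and declined with each later day while remaining above 0 d (9.29 ± 0.34 SE at 3 d, limma adjusted p = 8.7e-09, and 4.84 at 9 d). ERRFI1, a feedback inhibitor of the EGF receptor, was the gene that fell at 3 d, at 27.2, 31.5 and 26.7 FPKM at 0 d, 13.6, 13.5 and 15.2 FPKM at 3 d, then 136, 155 and 139 at 6 d and last 278, 256 and 252 at 9 d. That call (-1.01 ± 0.085 SE, limma adjusted p = 4.14e-06) sat at the limit and was lost with a pseudocount of 1 (-0.96), after rescaling (-0.92), and without the second 0 d (-0.93), the first 3 d (-0.98) or the second 3 d library (-0.98). The part of dexamethasone in the levels of the 10 genes was not tested, since all induced cells received it.

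**Figure D4:**
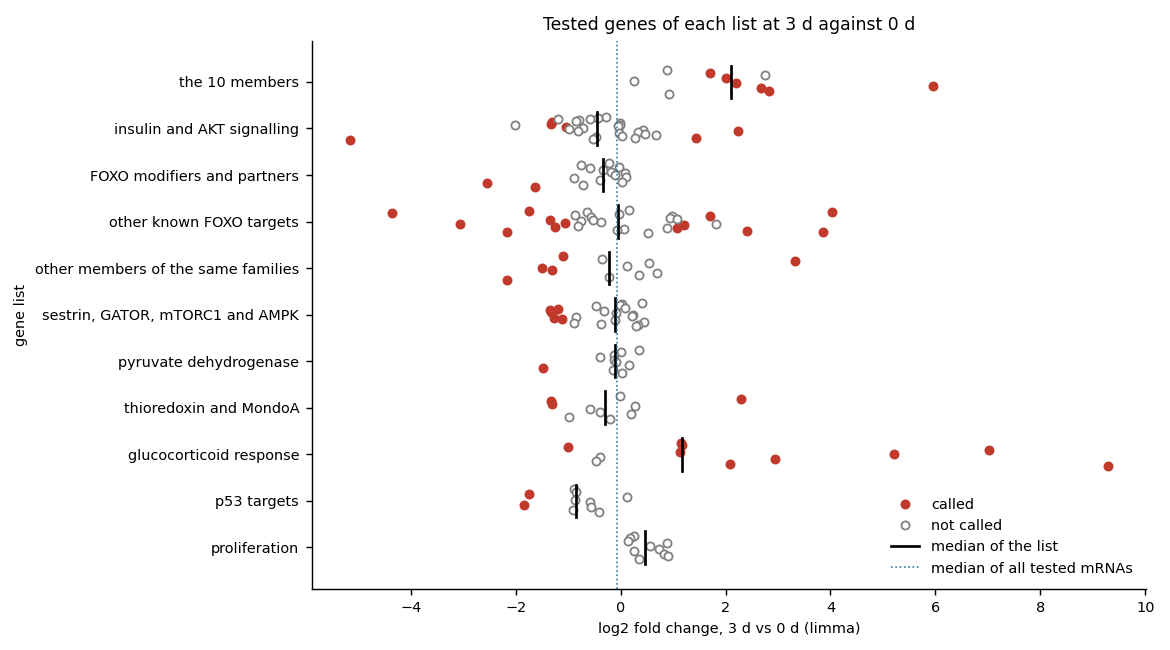
Log2 fold change at 3 d against 0 d (horizontal axis, limma) of the tested genes of each list (vertical axis), as 1 point for each gene, filled where it was called, with a black line at the median of the list and a dotted line at the median of all tested mRNAs (-0.06). The median of the 10 genes is 2.10 and that of the glucocorticoid list 1.16, while the insulin and AKT list lies at -0.46 and the p53 list at -0.85.

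Over the 12 libraries, which fall into 4 days, the 6 genes that were called lower at both 6 d and 9 d than at 3 d (FOXO1, FOXO4, SESN1, SESN3, PDK4 and CCNG2) were set side by side. They were picked from these libraries for a shared pattern, so a high r among them follows from the choice. Pearson r of log2(FPKM + 0.1) ran from 0.870 to 0.987 over their 15 pairs, with FOXO1 and SESN1 as the closest. IRS2 was closest to PDK4 (0.746) and INSR to CCNG2 (0.833). TXNIP had its highest r with IRS2 (0.488) and its lowest with INSR (-0.587). FOXO3 reached at most 0.637, with FOXO4. These values describe 12 libraries that share 4 day means, and no p is given for them.

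Outside the set, the mRNAs most like each gene were sought by Pearson r over the 12 libraries among 9980 named mRNAs with a mean of at least 1 FPKM. They were picked for a high r, so a course over the days like that of the gene follows from the choice. For PDK4 they were ALDH1A1 (0.997), EBF1 (0.996) and FRAT2 (0.994). ALDH1A1, which makes retinoic acid, measured 10.6, 10.97 and 11.7 FPKM at 0 d, 143, 156 and 149 FPKM at 3 d, then 20.2, 19.01 and 18.2 at 6 d and last 10.4, 10.8 and 10.3 at 9 d, also with its top at 3 d. For SESN3 they were PDGFRA (0.995), SELENOP (0.994) and SPRY3 (0.994). PDGFRA, the receptor that marks fat cell precursors in muscle, measured 168, 148 and 163 FPKM at 0 d, 925, 963 and 900.4 FPKM at 3 d, then 164, 160.4 and 161 at 6 d and last 201, 198 and 209.8 at 9 d, again highest at 3 d. Those of SESN1 were CITED2 (0.990), SNTB2 (0.987) and KLHL29 (0.986), of which CITED2, a transcriptional co-regulator, also stands in the list of FOXO targets. FOXO1 was followed by SLC5A6 (0.995), ID1 (0.994) and PEX11G (0.992), where ID1 is an inhibitor of differentiation factors.

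FOXO4 was most like the joint entry SCO2;ODF3B (0.992), PRKDC (0.991) and LAMA2 (0.990). IRS2 was most like PGM5 (0.995), THY1 (0.994) and ACACB (0.993), and ACACB, an acetyl-CoA carboxylase, is known to restrain fat oxidation. TXNIP was followed by ADAMTS2 (0.990), PDK1 (0.984) and HK2 (0.982), the last of which starts glucose breakdown. HK2 measured 10.3, 10.3 and 10.5 FPKM at 0 d, 13.5, 14.5 and 14.7 FPKM at 3 d, then 16.01, 18.8 and 17.1 at 6 d and last 18.9, 18.1 and 18.4 at 9 d, with its day means in the same upward order as TXNIP. For CCNG2 the genes were LPCAT2 (0.981), KCNE4 (0.977) and HEXIM1 (0.975), and for INSR NAA30 (0.972), CAPN7 (0.970) and BAZ2B (0.966). FOXO3 had weaker partners, ZNF276 (0.860), HINFP (0.845) and RECQL5 (0.833).

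Other RNA types were examined for the same genes. The study's network of competing RNAs joins FOXO1 to the lncRNA MSTRG.20301.1 and to the miRNAs bta-miR-330, bta-miR-486 and bta-miR-10172-3p_R-1, and SESN3 to the lncRNA MSTRG.20342.1 and to bta-miR-433. It also holds circRNA2018 on the side of FOXO1 and circRNA2627 on that of SESN3. These were picked by the study on these libraries, so their directions here are not independent evidence. The paper also measured FOXO1, SESN3, both lncRNAs, both circRNAs, bta-miR-330 and bta-miR-433 by quantitative PCR, and reports trends close to its sequencing. It counts every RNA of its network as differentially expressed. The fits used here differ from that for bta-miR-330, bta-miR-433, circRNA2018 and circRNA2627, which were not called. Further miRNAs known to act on FOXO mRNAs in other species were added: miR-27a, miR-27b, miR-96, miR-182, miR-183, miR-132 and miR-212.

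The deposited sequences of 7 of these miRNAs are shown, 5′ to 3′, because the seed (bases 2 to 8, in capitals) is what pairs with a target mRNA and shows which of these miRNAs could read the same sites. The first 4 are those that the study joins to FOXO1 or SESN3, and no pair of them shares a seed.
bta-miR-330: gCAAAGCAcacggcctgcagaga
bta-miR-486: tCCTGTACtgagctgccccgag
bta-miR-10172-3p_R-1: tCACTGGGcatcctctgcttt
bta-miR-433: aTCATGATgggctcctcggtgt

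Of the others, miR-132 and both forms of miR-212 are shown because they rose. miR-132 and hsa-miR-212-3p share a seed, while bta-miR-212 has another one.
bta-miR-132: tAACAGTCtacagccatggtcg
hsa-miR-212-3p_R+2: tAACAGTCtccagtcacggccac
bta-miR-212: aCCTTGGCtctagactgcttact

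Both lncRNAs peaked on the day of FOXO1 and SESN3. MSTRG.20301.1 measured 0.04, 0.02 and 0.01 FPKM at 0 d, 1.53, 0.54 and 0.50 FPKM at 3 d, then 0.07, 0.04 and 0.04 at 6 d and last 0, 0.02 and 0.01 at 9 d, and MSTRG.20342.1 0.04, 0.20 and 0.03 FPKM at 0 d, 4.38, 2.06 and 1.2 FPKM at 3 d, then 0.43, 0.11 and 0.17 at 6 d and last 0.24, 0.22 and 0.23 at 9 d. In both, all 3 d libraries exceeded all others, and the first 3 d library was the highest. At 3 d both were called higher, where 23.3% of 6906 tested lncRNAs were called, with log2 fold changes of 2.80 ± 0.51 SE (limma adjusted p = 0.00252) and 3.72 ± 0.53 SE (limma adjusted p = 0.000586). Neither was called at 6 d or 9 d (0 of 2 by limma on each day, and 0 at an unadjusted p under 0.05), where 6.37% and 6.79% of lncRNAs were. At such low levels the pseudocount sets the size: with a pseudocount of 1 the values were 0.82, not called, and 1.61, called, and with 0.01 that of MSTRG.20301.1 was 4.61. Among lncRNAs with a mean of at least 1 FPKM neither was tested.

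Of the 12 named miRNAs, 11 had enough reads to be tested, and bta-miR-96, with 5 reads in all, did not. At each of 3, 6 and 9 d edgeR called 4 of the 11 higher and 1 lower, where 6.38%, 11.3% and 18.3% of the 1081 tested miRNAs were called. bta-miR-486, the one that fell, had deposited normalised values of 11938, 13189 and 21634 at 0 d, against 5389.5, 5367 and 5996 at 3 d, then 2081, 1882 and 5137 at 6 d and last 2908, 2351 and 2208 at 9 d. All later libraries lay below those of 0 d, with log2 fold changes of -1.32 (edgeR adjusted p = 0.0171), -2.18 and -2.43. At 3 d that call needed all 3 libraries of the day: without the first, second or last 3 d library the values were -1.30, -1.29 and -1.38 and none was called, with an edgeR adjusted p of 0.000692 to 0.0876 over the 16 alternatives. bta-miR-10172-3p_R-1 had 65.6, 89.8 and 241 at 0 d, against 491, 457 and 544 at 3 d, then 309.9, 278 and 429.9 at 6 d and last 368, 374 and 415 at 9 d, higher in all later libraries (2.11, 1.59 and 1.80 at 3, 6 and 9 d, edgeR adjusted p = 0.00132 at 3 d).

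Among the called miRNAs, those of the miR-132 and miR-212 genes had the largest rises. bta-miR-132 had deposited normalised values of 255, 232 and 158 at 0 d, against 1574, 1482 and 1605 at 3 d, then 2690.3, 2572 and 2107 at 6 d and last 2450.3, 2447 and 2029 at 9 d. All later libraries lay more than 5 times above all those of 0 d (2.97, 3.66 and 3.59 at 3, 6 and 9 d, edgeR adjusted p = 1.68e-06 at 3 d). hsa-miR-212-3p_R+2 rose from 22, 16 and 0 raw reads at 0 d to 323, 370 and 296 at 3 d (4.16, edgeR adjusted p = 0.000165). bta-miR-212 rose from 0, 5 and 7 to 69, 90 and 104 reads (3.79, edgeR adjusted p = 0.000312). Both kept their calls at 6 d and 9 d. These genes lie close together in mammals and are known to respond to cyclic AMP, which IBMX raises. The part of IBMX in their levels was not tested. At 9 d all 3 of them still stood above every 0 d library.

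The other tested miRNAs were not called. bta-miR-330 stood at 603, 603 and 656 at 0 d, against 571, 586 and 571 at 3 d, then 755, 733 and 918 at 6 d and last 914, 962 and 756 at 9 d, and bta-miR-433 at 8438, 9499 and 8394 at 0 d, against 6989, 6867 and 7248 at 3 d, then 5737, 5488 and 6648 at 6 d and last 6343, 5429 and 4511 at 9 d, with no overlap between 0 d and a later day in either. edgeR, which scales the raw values by its own factors, gave log2 fold changes of 0.03, 0.54 and 0.69 for bta-miR-330 and -0.19, -0.40 and -0.50 for bta-miR-433 at 3, 6 and 9 d. bta-miR-27b, the most abundant of the 12, measured 28597, 33086 and 27654 at 0 d, against 25891, 25277 and 26903 at 3 d, then 38025, 35563 and 41238 at 6 d and last 48243, 44441 and 52189.9 at 9 d, highest at 9 d (0.89, edgeR adjusted p = 0.00116). It passed the fold limit at 9 d without the second 0 d library (1.01). bta-miR-27a-3p_R+1, with the same seed, ranged from -0.22 to 0.45. bta-miR-182 had 0 raw reads in all 3 libraries of 0 d and 22, 12 and 5 at 3 d (6.82, edgeR adjusted p = 0.125). bta-miR-183_R-1 had 0, 18 and 0 at 0 d and 16, 42 and 25 at 3 d (1.71, edgeR adjusted p = 0.341). All 0 d reads of bta-miR-183_R-1 came from the second library, without which it was called higher on all 3 days (edgeR adjusted p over the alternatives 0.00601 to 0.534, 0.00636 to 0.809 and 0.00555 to 0.918 at 3, 6 and 9 d).

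**Figure D5:**
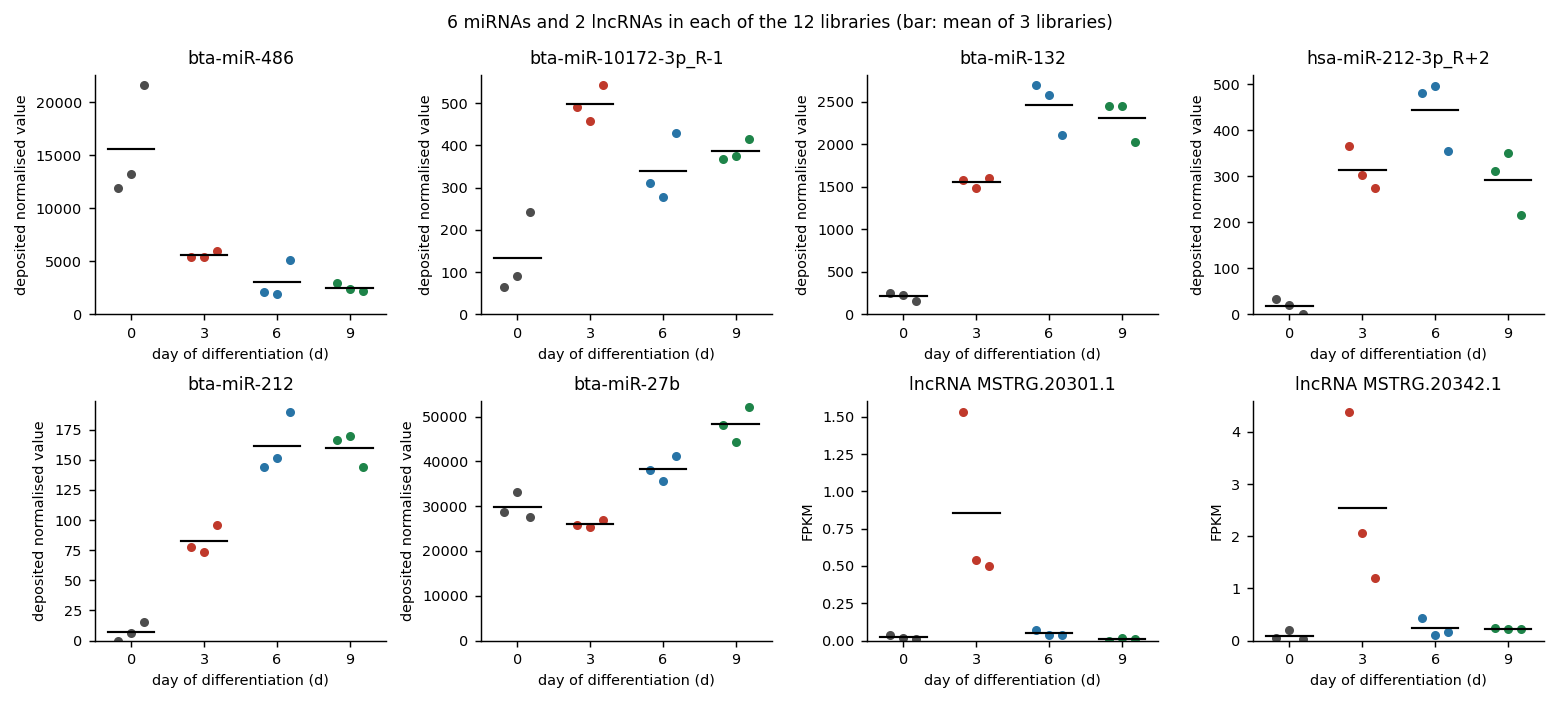
Deposited normalised value of 6 miRNAs and FPKM of 2 lncRNAs (vertical axes, linear from 0) in the 12 libraries by day of differentiation (horizontal axes), with 1 point for each library and a bar at the mean of 3 libraries. bta-miR-486 is highest at 0 d (11938 to 21634), bta-miR-132 goes from 158 to 255 at 0 d to 2029 to 2450.3 at 9 d, and both lncRNAs stand above their other days at 3 d.

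Circular RNAs of these genes were few. Of 14070 circRNA entries, 8 had one of the 10 genes as host (1 for FOXO1, 2 for FOXO3, 3 for INSR and 2 for SESN1), and 3 of them had at least 5 reads. Positions are as deposited, and the paper names ARS-UCD1.2 as its genome. The INSR circRNA (circRNA1310, 1 exon, chr7:16180447-16180998) held 9, 14 and 18 reads at 0 d, 27, 28 and 18 reads at 3 d, then 15, 23 and 22 at 6 d and last 20, 11 and 25 at 9 d. Its libraries overlapped between all days. The FOXO1 circRNA (circRNA1947, 2 exons, chr12:21988870-21991896) held 8, 7, 15 and 11 reads over the 3 libraries of 0, 3, 6 and 9 d, and that of FOXO3 (circRNA1390, 1 exon, chr9:41522588-41524023) 4, 18, 10 and 9. A further FOXO3 circRNA (circRNA3408), with a start 1 base away and the same end and strand, held 4 reads, all in the second 0 d library. Counted together they give 8 reads at 0 d and 18 at 3 d. At 3, 6 and 9 d edgeR called 0 of the 3, where 0.813%, 0.53% and 0.566% of the 2828 tested circRNAs were called, and 0 of the 3 had an unadjusted p under 0.05. DESeq2 also called 0. The circRNAs that the study joins to FOXO1 and SESN3 by way of miRNAs were read by their IDs. circRNA2018 held 5, 0 and 0 reads at 0 d and 8, 19 and 12 at 3 d, with 14 and 8 in all on the later days, and was not called (2.67 at 3 d, at an unadjusted p of 0.00427, and called there without the first 0 d library, edgeR adjusted p over the 16 alternatives 0.0108 to 0.831). circRNA2627 held 0, 1 and 0 reads at 0 d, 2, 4 and 8 at 3 d, and 14 and 24 in all at 6 d and 9 d. Its log2 fold changes were 3.16, 3.67 and 3.91, at an unadjusted p of 0.0125, 0.00372 and 0.00151. It was not called by edgeR (edgeR adjusted p = 0.53, 0.389 and 0.214, over the 16 alternatives 0.278 to 1, 0.169 to 1 and 0.0964 to 1) or by DESeq2. At these read numbers a difference of the size seen in SESN3 or FOXO1 mRNA may go undetected.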

How the data were processed

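By the deposited processing notes, the authors aligned reads with HISAT2 2.0 and Bowtie 0.12.2 and assembled transcripts with StringTie 1.3.0; the paper names Bowtie2 and another version of HISAT2. The values analysed were those the authors deposited: FPKM for mRNAs and lncRNAs, counts of back-spliced reads for circRNAs, and for miRNAs raw and normalised values. The raw miRNA values, as deposited by the authors, are expected counts in which reads with several matches are shared, and were rounded before fitting. The normalised miRNA values and the circRNA values scaled to mapped reads are signal columns that the authors deposited after multiplying the counts by 1 factor per library. Members, gene lists, markers and miRNAs were chosen with earlier results of these data known. Genes were matched by a name standing alone in the deposited table, so names joined to another gene were left out. FPKM were fitted as log2(FPKM + 0.1) with limma 3.58.1 (trend, all 12 libraries) after a filter of a mean of at least 0.1 FPKM. circRNA counts (at least 5) and miRNA raw values (at least 10 over all libraries) were fitted with edgeR 4.0.16 (quasi-likelihood, TMM) and, as an alternative, DESeq2 1.42.0. An RNA was called at an absolute log2 fold change above 1 and a Benjamini-Hochberg adjusted p under 0.05 over all tested RNAs of its type. Of each list, the genes named were the one with the largest called rise and the one with the largest called fall at 3 d, with the most abundant gene of each marker list and the 3 mRNAs most like each member. Other genes named (such as YWHAZ, IRS1, PDK1, ARRDC1, ARRDC4, ADIPOQ, MYOD1, KCNJ8, COL1A1 and LEP) were chosen after their values were seen, and so were the 2 circRNAs of the study's network. Alternatives were pseudocounts of 1 and 0.01, a mean of at least 1 FPKM or no filter, rescaling by the median ratio, fits of only the 6 libraries compared, a replicate term, each library left out, at least 20 circRNA counts and at least 120 miRNA raw values. All deposited value columns were used, so 0 columns of values per sample stayed out. The fitting code was tested on simulated data. Python 3.11.15, NumPy 2.4.6, pandas 2.3.3, Matplotlib 3.10.9 and R 4.3.3 were used.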

Additional observations from a re-analysis of the deposited data

How the results depend on the processing

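With a pseudocount of 1 rather than 0.1, 1 of the 10 genes was called at 9 d against 6 d rather than 2. With that pseudocount 1 of the 2 lncRNAs was called at 3 d rather than 2. A larger pseudocount shrinks the log2 fold changes of low values by construction. With a filter of a mean of at least 1 FPKM, 0 lncRNAs were called at 3 d, because both have means under 1 FPKM and were not tested. Leaving out 1 library at a time gave 6 to 7 genes called at 3 d, 2 to 3 at 6 d and 1 at 9 d against 0 d. After rescaling by the median ratio 8 genes were called at 3 d, with FOXO3 and TXNIP added to the 6. A term for the replicate number left all 60 results of the 10 genes unchanged in call and direction. Residuals of 18 pairs of libraries from different days with the same replicate number had r of -0.0981 to 0.112 (median 0.0219), and those of 36 pairs with different numbers -0.190 to 0.183 (median -0.0108); all 6 pairs of replicate 3 were positive (0.0292 to 0.105), and whether same-number libraries are more alike was not tested. The labels do not say whether replicates are separate animals, FPKM hide the depth behind each value, and FOXO3 in particular cannot be ordered by day with 3 libraries each.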
